A study of Mus musculus with 24 samples.

Results

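A set of 10 genes of the NRF2 antioxidant response was followed through the ileum and the liver of mice after massive small bowel resection. They were taken by symbol from the gene names of both deposited tables: Nfe2l2, Nqo1, Gclc, Gclm, Txnrd1, Srxn1, Hmox1, Gpx2, Osgin1 and G6pdx, which are 10 of the 40481 genes listed per tissue. Every C57BL/6 mouse had lost 75% of the small bowel and carried the floxed Abca1 allele (Abca1 fl/fl), so no group is unresected and none has an unmodified Abca1 gene. The floxed groups carried that allele alone. The Villin-Cre groups (Abca1 fl/fl X Villin-Cre) also expressed Cre recombinase from the Villin promoter of intestinal epithelium, which leaves the gene in the other cells of the gut wall. Within each genotype mice received vehicle, whose composition is not stated in the sources used here, or GW3965, which activates the liver X receptors LXRα and LXRβ, in carboxymethyl cellulose at 1 mg/kg/day 2 times weekly over the last 5 of 10 weeks after resection. RNA sequencing gave 3 libraries for each of the 4 groups in ileum and in liver, 24 in all. The sources used here give no age for the mice.

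NRF2, encoded by Nfe2l2, is a transcription factor that the adaptor KEAP1 hands to a CUL3 ubiquitin ligase for degradation. Oxidants and electrophiles modify KEAP1, NRF2 then accumulates, pairs with small MAF proteins and binds antioxidant response elements ahead of genes for glutathione synthesis, thioredoxin recycling, quinone reduction, heme breakdown and NADPH supply. The control of NRF2 is largely at the level of the protein, which RNA does not measure. In gut epithelium and liver this programme is known for handling dietary electrophiles, bile constituents and drug metabolites.

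The promoters were searched for the letters of the antioxidant response element, since these letters are the feature the genes are known to share. RefSeq windows of 250 bases ahead of a transcription start (GRCm38.p6) were found for 8 of the 10 genes, 10 windows in all, and Gclc and Hmox1 have no entry. The motifs TGACNNNGC and TGAGNNNGC were searched on both strands, as was TGANTCAGC, whose matches with G in the fourth place are also matches of TGAGNNNGC and contain the AP-1 letters TGAGTCA. Windows of 4 of the 8 genes held TGACNNNGC, for Txnrd1 only the second of its 3, beside 10.2% of all 32817 windows. The shares over all windows are per window and not per gene, and a gene with several windows has more places to match. Those of Srxn1 and Osgin1 held TGAGNNNGC, beside 14.4%, and both also held TGANTCAGC, beside 1.02%. The 4 windows below are shown because Srxn1 and Osgin1 carry the same 9 letters and moved differently in the liver, because Gclm rose on GW3965 in the ileum of both genotypes, and because Gpx2, which has no match, fell there. Nqo1, also without a match, fell on GW3965 in floxed ileum (log2 change -0.55) and rose in Villin-Cre ileum (0.45). A link between matches and responses was not tested. They end 1 base before the start and read 5′ to 3′ along the gene, with motif letters in capitals. A match on the opposite strand is capitalised as it reads on the printed strand.
Srxn1, chr2:152105274-152105523, plus strand: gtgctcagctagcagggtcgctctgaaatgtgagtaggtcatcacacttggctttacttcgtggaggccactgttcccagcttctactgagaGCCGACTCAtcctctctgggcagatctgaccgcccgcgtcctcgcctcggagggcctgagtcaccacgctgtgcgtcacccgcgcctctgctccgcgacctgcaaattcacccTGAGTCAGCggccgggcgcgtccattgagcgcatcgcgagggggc
Osgin1, chr8:119436897-119437146, plus strand: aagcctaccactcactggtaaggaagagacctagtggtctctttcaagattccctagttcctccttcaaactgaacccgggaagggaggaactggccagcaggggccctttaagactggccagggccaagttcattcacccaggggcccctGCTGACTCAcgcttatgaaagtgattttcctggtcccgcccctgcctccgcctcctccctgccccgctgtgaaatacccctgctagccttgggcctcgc
Gclm, chr3:122245307-122245556, plus strand: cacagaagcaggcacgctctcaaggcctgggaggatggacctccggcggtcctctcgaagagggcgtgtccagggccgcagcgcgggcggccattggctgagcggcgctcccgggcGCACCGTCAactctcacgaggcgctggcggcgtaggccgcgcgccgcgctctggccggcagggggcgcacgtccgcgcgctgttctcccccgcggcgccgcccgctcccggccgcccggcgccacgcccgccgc
Gpx2, chr12:76795555-76795804, minus strand: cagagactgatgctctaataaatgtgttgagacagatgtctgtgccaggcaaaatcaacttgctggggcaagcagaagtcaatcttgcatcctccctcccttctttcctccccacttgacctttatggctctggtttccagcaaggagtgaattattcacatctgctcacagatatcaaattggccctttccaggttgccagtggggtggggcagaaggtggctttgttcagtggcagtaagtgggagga
The Srxn1 window held TGAGTCAGC at bases -45 to -37 and TGAGTCGGC on the opposite strand at -158 to -150. The Osgin1 window held TGAGTCAGC on the opposite strand at -99 to -91, and the Gclm window TGACGGTGC on the opposite strand at -134 to -126. Single matches also lay ahead of Nfe2l2 (TGACTCCGC, -240 to -232), of the second of 3 Txnrd1 starts (TGACAAAGC, -92 to -84) and of G6pdx (TGACTGAGC, -57 to -49). No match in the windows of Nqo1 and Gpx2 says only that these letters are not there. A match is a run of letters and not a measured binding site, and RefSeq starts can lie inside the annotated gene, as for Osgin1.

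**Figure D1:**
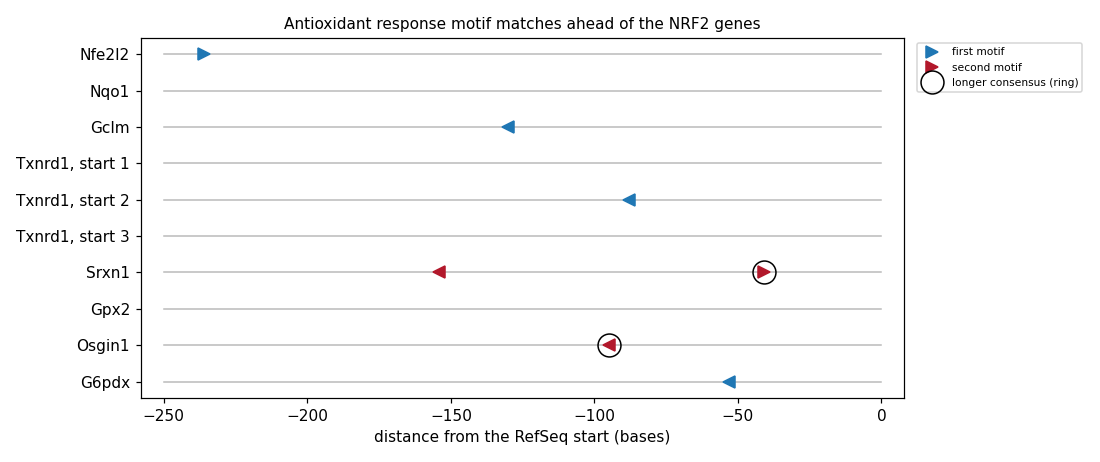
Positions of motif matches in the 250 bases ahead of each RefSeq start (distance in bases on the horizontal axis, 1 row per start). Triangles mark TGACNNNGC (blue) and TGAGNNNGC (red) and point right on the gene's strand and left on the opposite strand; rings mark TGANTCAGC. Rings appear at Srxn1 and Osgin1 only, and the rows of Nqo1, Gpx2 and the outer Txnrd1 starts are empty.

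Levels are CPM, the reads of a gene scaled to the reads of its library, recovered from the deposited log2 values. Ileal libraries held 17.0 to 24.2 M reads and liver libraries 26.5 to 32.3 M, so 1 CPM stood for 17.0 to 24.2 reads in ileum and for 26.5 to 32.3 in liver. Fold changes were taken after adding 0.5 CPM, so those of low genes are understated, and adjusted p-values are from limma over all genes tested in a tissue with a threshold of 0.05. Abca1, the targeted gene, was measured at 25.7 to 30.6 CPM in Villin-Cre vehicle ileum against 54.2 to 59.9 CPM in floxed vehicle ileum. It rose on GW3965 to 251 to 438 CPM in floxed ileum and to 53.7 to 54.0 CPM in Villin-Cre ileum. Counts cover the whole gene, exons outside the floxed part included. In the liver Abca1 was also lower with Villin-Cre on vehicle (225 CPM in each library against 327 to 342 CPM). In 9 of 12 ileal and 10 of 12 liver pairs of libraries of a group the variance was 2.58 to 3.58 times that of counting alone. Ileal floxed GW3965 replicate 3 and liver floxed GW3965 replicate 1 stood apart from their groups at 9.39 to 9.92 and 12.0 to 12.1 times, so results of these groups are given without them where that matters. Of counts above 0, 56.4 to 58.1% were even in ileal and 55.5 to 57.2% in liver libraries. Whether both reads of a pair were counted was not tested, so reads may exceed fragments and the variance of counting may be understated. No label says which libraries came from separate animals, and p-values measure the spread between these libraries, which may be technical. With close libraries averaged, the design had 1 unit in all groups but floxed GW3965, and far fewer members passed the threshold (beside each count below). Scaling libraries by their median gene ratio instead (rescaling) shifted the median log2 change of all genes in genotype contrasts by 0.22 and 0.24 in the ileum (vehicle, GW3965) and by -0.25 and -0.22 in the liver, and in GW3965 contrasts by 0.05 to 0.10. Single members moved by somewhat more. None of the 10 enterocyte markers was at 0 in the ileum and none of the 10 hepatocyte markers in the liver.

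In the ileum the NRF2 genes rose on GW3965 chiefly when Villin-Cre was present. In Villin-Cre mice 8 of 10 members were higher on GW3965 and 1, Gpx2, was lower (median log2 change 0.56, against -0.11 over all genes). In that comparison 21.5% of all genes passed the threshold as higher and 31.1% as lower, 52.5% together, so that 40.9% of the genes past it were higher (50.3% after rescaling). In floxed mice 2 members were higher (Gclc, Gclm) and 3 lower (Nqo1, Gpx2, G6pdx), with a median of -0.05 beside -0.08 over all genes, 14.7% of which were higher and 20.9% lower, 35.6% together (41.2% of calls higher, 53.5% after rescaling). The difference between these responses, tested as the interaction, was positive and past the threshold for 8 members and negative for none (median 0.82), while 14.6% of all genes passed with a positive and 18.4% with a negative interaction, 33.0% together. With close libraries averaged 2 members passed in Villin-Cre mice, 1 in floxed mice and none in the interaction. Without regard to the test, 10 members had groups that did not overlap in Villin-Cre mice and 5 in floxed mice, beside 61.5% and 43.8% of all genes. In bulk tissue fewer cells of a type and less RNA per cell cannot be told apart.

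Nfe2l2 itself (chromosome 2, 75675513 to 75704641, minus strand, GRCm38) followed this pattern. Its ileal levels were 72.3, 70.4 and 63.7 CPM in floxed vehicle, 65.1, 66.2 and 78.8 CPM in floxed GW3965, 55.2, 52.9 and 55.6 CPM in Villin-Cre vehicle and 102, 95.6 and 98.1 CPM in Villin-Cre GW3965 libraries. The Villin-Cre GW3965 libraries lay above all others, the Villin-Cre vehicle libraries below all others, and the floxed groups overlapped. The GW3965 response was 0.85 ± 0.07 in Villin-Cre (log2 ± SE, adjusted p = 4.6e-08) and 0.02 ± 0.07 in floxed ileum (adjusted p = 0.85), and the interaction was 0.82 ± 0.10 (adjusted p = 1.3e-05). On vehicle it was lower with Villin-Cre by -0.33 ± 0.07 (adjusted p = 0.0019), which was -0.08 (adjusted p = 0.44) after rescaling.

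The subunits of glutamate-cysteine ligase, which makes the first and rate-limiting step of glutathione synthesis, had the largest rises of the 10 genes in Villin-Cre ileum. Gclc, the catalytic subunit (chromosome 9, 77754535 to 77794485, plus strand), measured 41.3, 40.2 and 37.9 CPM in floxed vehicle and 48.6, 43.2 and 65.9 CPM in floxed GW3965 ileum. In Villin-Cre ileum it measured 30.8, 37.5 and 34.0 CPM on vehicle and 112, 115 and 106 CPM on GW3965. Groups of each genotype did not overlap between treatments, and the rise in Villin-Cre ileum was 3.23-fold (1.69 ± 0.11, adjusted p = 1.9e-09). In floxed ileum the rise was 0.38 ± 0.11 (adjusted p = 0.017), and it was 0.34 (adjusted p = 0.063) without floxed vehicle replicate 3. Without floxed GW3965 replicate 3, the highest library of its group, it was 0.20 (adjusted p = 0.038).

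Gclm, the modifier subunit (chromosome 3, 122245557 to 122270732, plus strand), measured 30.5, 32.1 and 32.0 CPM in floxed vehicle, 50.6, 51.8 and 54.4 CPM in floxed GW3965, 40.3, 34.3 and 35.1 CPM in Villin-Cre vehicle and 119, 109 and 110.2 CPM in Villin-Cre GW3965 ileum. The 4 groups did not overlap, in the order Villin-Cre GW3965, floxed GW3965, Villin-Cre vehicle, floxed vehicle. The response was 0.72 ± 0.07 in floxed (adjusted p = 5.5e-07) and 1.61 ± 0.07 in Villin-Cre ileum (adjusted p = 1.1e-11), and the interaction 0.89 ± 0.10 (adjusted p = 3.6e-06). The vehicle groups differed by 0.21 ± 0.07 (adjusted p = 0.027; 0.45 after rescaling), a call that ended without floxed vehicle replicate 1 (adjusted p = 0.093) or Villin-Cre vehicle replicate 1 (adjusted p = 0.15). Parts of its exons overlap the antisense gene Gm17494 and the pseudogene Gm6061, and no source used here gives the strand setting of the counting, so reads there cannot be told apart.

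Txnrd1, the cytosolic thioredoxin reductase (chromosome 10, 82833951 to 82897712, plus strand), was near level in 3 groups, at 164, 161 and 167 CPM in floxed vehicle, 157, 159.5 and 163 CPM in floxed GW3965 and 152, 157 and 162 CPM in Villin-Cre vehicle ileum. The Villin-Cre GW3965 libraries stood above them at 251.5, 253 and 255 CPM. Its GW3965 response was 0.69 ± 0.05 in Villin-Cre ileum (adjusted p = 1.9e-09) and -0.04 ± 0.05 in floxed ileum (adjusted p = 0.58; 0.05 after rescaling), and the interaction was 0.73 ± 0.07 (adjusted p = 3.5e-07). The vehicle groups, at -0.06 ± 0.05, were at 0.19 (adjusted p = 0.0094) after rescaling.

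Srxn1, sulfiredoxin, which repairs over-oxidised peroxiredoxins (chromosome 2, 152105516 to 152111376, plus strand), measured 185, 180.5 and 194 CPM in floxed vehicle and 190, 184 and 230 CPM in floxed GW3965 ileum. It measured 238, 244 and 236 CPM in Villin-Cre vehicle and 297, 303 and 299 CPM in Villin-Cre GW3965 ileum. The floxed groups overlapped, while the Villin-Cre groups lay above both and apart from each other. The response in Villin-Cre ileum was 0.33 ± 0.07 (adjusted p = 0.00061) and that in floxed ileum 0.10 ± 0.07 (adjusted p = 0.26). Their difference, 0.22 ± 0.10, missed the threshold (adjusted p = 0.086), and was 0.32 (adjusted p = 7.7e-05) without floxed GW3965 replicate 3.

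Gpx2 fell where most members rose. It encodes the glutathione peroxidase of gastrointestinal epithelium (chromosome 12, 76792333 to 76795554, minus strand). Its levels were 294, 301 and 315 CPM in floxed vehicle, 90.9, 90.8 and 98.4 CPM in floxed GW3965, 165, 170.0 and 166 CPM in Villin-Cre vehicle and 102, 98.5 and 100.4 CPM in Villin-Cre GW3965 ileum. Both GW3965 groups lay below both vehicle groups. The fall was 3.23-fold in floxed ileum (-1.69 ± 0.05, adjusted p = 3.3e-13) and 1.66-fold in Villin-Cre ileum (-0.73 ± 0.05, adjusted p = 2.8e-09), so its positive interaction (0.96 ± 0.07, adjusted p = 4.6e-08) is a smaller fall and not a rise. On vehicle it was lower with Villin-Cre (-0.86 ± 0.05, adjusted p = 2.5e-09). On GW3965 the genotypes differed by 0.10 ± 0.05 (adjusted p = 0.10), which was 0.38 (adjusted p = 3.2e-05) after rescaling and 0.14 (adjusted p = 0.015) without floxed GW3965 replicate 3.

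Nqo1, the quinone reductase that serves as the usual reporter of NRF2 activity (chromosome 8, 107388225 to 107403206, minus strand), was low in the ileum. It measured 9.68, 11.8 and 10.6 CPM in floxed vehicle, 7.98, 6.84 and 6.67 CPM in floxed GW3965, 6.68, 5.73 and 6.24 CPM in Villin-Cre vehicle and 9.45, 7.63 and 8.96 CPM in Villin-Cre GW3965 libraries. GW3965 lowered it in floxed ileum (-0.55 ± 0.13, adjusted p = 0.0044) and raised it in Villin-Cre ileum (0.45 ± 0.13, adjusted p = 0.010), with an interaction of 0.99 ± 0.19 (adjusted p = 0.00068). On vehicle it was lower with Villin-Cre (-0.73 ± 0.13, adjusted p = 0.00036), whereas the GW3965 groups overlapped (0.26 ± 0.13, adjusted p = 0.12; 0.53, adjusted p = 0.0030, after rescaling).

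Hmox1, the inducible heme oxygenase (chromosome 8, 75093621 to 75100589, plus strand), passed the threshold in no ileal contrast. It measured 2.52, 2.12 and 2.63 CPM in floxed vehicle, 3.11, 1.64 and 2.01 CPM in floxed GW3965, 1.64, 2.16 and 2.05 CPM in Villin-Cre vehicle and 1.46, 1.4 and 1.33 CPM in Villin-Cre GW3965 ileum, or 28 to 64 reads per library. Contrasts of 2 groups had an SE of 0.22, so small differences may be missed, and the smallest detectable difference was not computed. On GW3965 the genotypes differed by -0.50 ± 0.22 (adjusted p = 0.065), and by -0.67 (adjusted p = 0.029) without floxed GW3965 replicate 2.

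Osgin1, an oxidative stress-induced growth inhibitor (chromosome 8, 119434124 to 119446256, plus strand), measured 29.1, 31.1 and 34.7 CPM in floxed vehicle, 24.1, 26.6 and 43.1 CPM in floxed GW3965, 34.3, 33.0 and 41.0 CPM in Villin-Cre vehicle and 52.0, 50.1 and 55.4 CPM in Villin-Cre GW3965 ileum. The Villin-Cre GW3965 libraries lay above all others and the remaining groups overlapped. The response was 0.54 ± 0.15 in Villin-Cre ileum (adjusted p = 0.0071) and -0.06 ± 0.15 in floxed ileum (adjusted p = 0.81). The latter rests on replicate 3 of floxed GW3965, without which it was -0.31 (adjusted p = 0.0067). The interaction, 0.60 ± 0.22 (adjusted p = 0.044), missed the threshold in 9 of 12 removals of 1 library.

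G6pdx, glucose-6-phosphate dehydrogenase, which supplies NADPH (X chromosome, 74409483 to 74429194, minus strand), measured 43.3, 42.3 and 46.8 CPM in floxed vehicle, 39.6, 38.9 and 34.3 CPM in floxed GW3965, 34.5, 37.1 and 29.5 CPM in Villin-Cre vehicle and 50.2, 52.0 and 49.9 CPM in Villin-Cre GW3965 ileum. It rose in Villin-Cre ileum (0.59 ± 0.09, adjusted p = 1.7e-05) and the interaction was 0.82 ± 0.12 (adjusted p = 5.8e-05). The fall in floxed ileum, -0.23 ± 0.09 (adjusted p = 0.046), missed the threshold in 5 of 6 removals of 1 library (adjusted p up to 0.16, without floxed vehicle replicate 3) and after rescaling (-0.15, adjusted p = 0.22). On vehicle it was lower with Villin-Cre (-0.39 ± 0.09, adjusted p = 0.0016; -0.14, adjusted p = 0.22, after rescaling). The gene overlaps Ikbkg on the other strand.

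**Figure D2:**
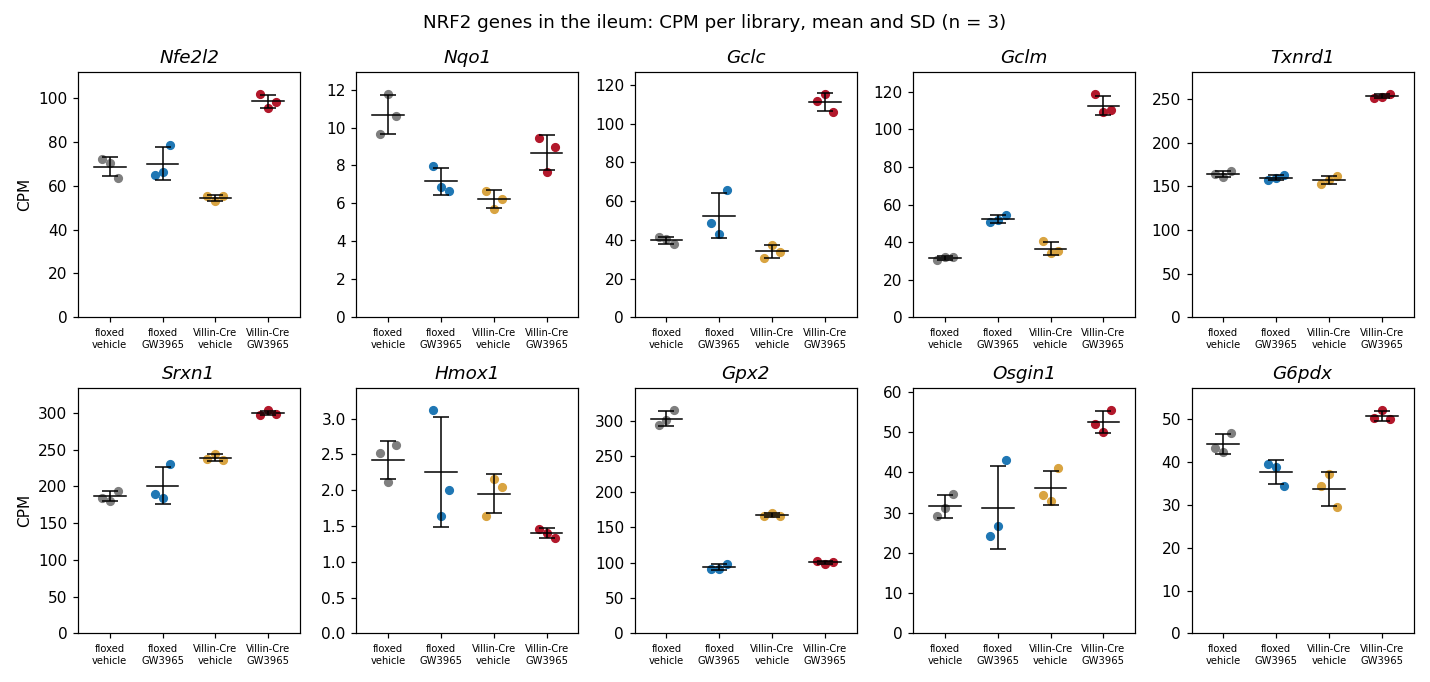
Levels of the 10 NRF2 genes in each ileal library (CPM, linear axes from 0), by group, with the mean (line) and SD (bar) of 3 libraries. The Villin-Cre GW3965 libraries are the highest for Nfe2l2, Gclc, Gclm, Txnrd1, Srxn1, Osgin1 and G6pdx, whereas Gpx2 is highest in floxed vehicle libraries at 294 to 315 CPM.

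Between genotypes, 7 members were higher with Villin-Cre among GW3965 libraries and none was lower (median 0.54, against -0.24 over all genes, of which 13.6% were higher and 38.3% lower, 51.9% together). After rescaling 9 were higher and none lower, and the share of higher genes among all calls was 52.3% in place of 26.1%. Among vehicle libraries 2 were higher (Gclm, Srxn1) and 4 lower (Nfe2l2, Nqo1, Gpx2, G6pdx), while 9.61% of all genes were higher and 30.7% lower, 40.3% together. After rescaling this became 4 higher and 2 lower, and the share of higher genes among all calls 58.1% in place of 23.8%. With close libraries averaged, 1 member passed on GW3965 and none on vehicle. Groups did not overlap for 9 members on GW3965 and 7 on vehicle, beside 57.5% and 52.5% of all genes. The make-up of the ileum moved with the same groups. Summed over 10 enterocyte markers, levels were 12230 to 12430 CPM in floxed vehicle, 19700 to 20560 in floxed GW3965, 16110 to 16470 in Villin-Cre vehicle and 31440 to 32000 in Villin-Cre GW3965 libraries, and all 10 rose in Villin-Cre mice on GW3965. Over all ileal genes 21.5% were higher and 31.1% lower in that contrast. The 8 smooth muscle markers summed to 6621 to 6730, 2570 to 3865, 7025 to 7372 and 912 to 919 CPM in the same order, and 8 crypt stem and Paneth markers to 418 to 436, 206 to 792, 168 to 171 and 83.6 to 88.9 CPM. The part of these shifts in the changes of the NRF2 genes was not tested.

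In the liver most members were higher with Villin-Cre. All 10 passed the filter on low values, but Gpx2 did so through the Villin-Cre groups in which it is high, so its place among the counts by genotype was fixed by the filter. On vehicle, 7 of 10 members were higher in Villin-Cre than in floxed mice and 1, Nfe2l2, was lower (median 0.91 against 0.26 over all genes, of which 45.1% were higher and 11.7% lower, 56.8% together). On GW3965, 7 were higher and 1, Osgin1, lower (median 1.04 against 0.21, with 40.9% of all genes higher and 15.0% lower, 55.9% together). After rescaling, these counts were 6 higher and 2 lower on vehicle and 7 higher and 3 lower on GW3965, and with close libraries averaged 1 and 3 members passed. Of all calls, 79.3% on vehicle and 73.1% on GW3965 were higher, and 49.3% and 50.4% after rescaling. GW3965 lowered 6 members in floxed liver and raised 1, Osgin1 (median -0.49, against -0.04 over all genes, of which 10.4% were higher and 19.7% lower, 30.1% together; 34.5% of calls were higher, and 46.5% after rescaling). In Villin-Cre liver it lowered 4 and raised none (median -0.39, against -0.08; 2.85% of all genes were higher and 9.03% lower, 11.9% together; 23.98% of calls were higher, and 59.9% after rescaling). With close libraries averaged no member passed in either genotype. A fit of the Villin-Cre liver groups alone called 9 members lower on GW3965, and 21.0% of all genes. The interaction passed for 2 members with a positive and 1 with a negative sign, while 10.2% and 9.70% of all genes did so, 19.9% together. Without floxed GW3965 replicate 1 it passed for 5, and for 32.6% of all genes. Groups did not overlap for 10 members between genotypes on vehicle and 8 on GW3965, beside 67.4% and 58.5% of all genes, and for 7 members between treatments in floxed and 9 in Villin-Cre liver, beside 39.1% and 40.0%.

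Among the 9 members above 1 CPM in every liver, Srxn1 had the largest differences between genotypes. Its levels were 164, 172 and 172 CPM in floxed vehicle, 50.6, 68.5 and 68.8 CPM in floxed GW3965, 969, 981 and 956 CPM in Villin-Cre vehicle and 698, 679 and 675 CPM in Villin-Cre GW3965 libraries. No groups overlapped. Villin-Cre livers held 5.70-fold more on vehicle (2.51 ± 0.09, adjusted p = 3.6e-11) and 10.9-fold more on GW3965 (3.45 ± 0.09, adjusted p = 7.2e-13). GW3965 lowered it by -1.44 ± 0.09 in floxed (adjusted p = 6.7e-08) and by -0.50 ± 0.09 in Villin-Cre liver (adjusted p = 0.0024), an interaction of 0.94 ± 0.12 (adjusted p = 0.00013).

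Txnrd1 moved the same way over a smaller range, with 218, 216 and 218 CPM in floxed vehicle, 137, 143.5 and 156 CPM in floxed GW3965, 375, 369 and 388 CPM in Villin-Cre vehicle and 340.0, 322 and 315 CPM in Villin-Cre GW3965 liver. The genotypes differed by 0.79 ± 0.05 on vehicle (adjusted p = 1.2e-08; 0.51 after rescaling) and 1.16 ± 0.05 on GW3965 (adjusted p = 1.6e-10), and the interaction was 0.36 ± 0.07 (adjusted p = 0.0027). The fall on GW3965 was -0.58 ± 0.05 in floxed liver (adjusted p = 1.7e-06). That in Villin-Cre liver, -0.21 ± 0.05 (adjusted p = 0.016), missed the threshold in 4 of 6 removals of 1 library (adjusted p up to 0.076), and was -0.12 (adjusted p = 0.15) after rescaling.

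Gclc and Gclm, which rose together in the ileum, parted in the liver. Gclc measured 558, 562 and 572 CPM in floxed vehicle, 456, 412.5 and 405 CPM in floxed GW3965, 1148, 1131 and 1149 CPM in Villin-Cre vehicle and 811, 799 and 770 CPM in Villin-Cre GW3965 liver. The groups did not overlap, and Villin-Cre livers held 2.03-fold more on vehicle (1.02 ± 0.05, adjusted p = 6.5e-10). GW3965 lowered Gclc in floxed (-0.41 ± 0.05, adjusted p = 2.5e-05) and in Villin-Cre liver (-0.53 ± 0.05, adjusted p = 1.9e-05). Gclm stayed within 196 to 216 CPM in all 12 livers and passed the threshold in no liver contrast. After rescaling its genotype contrasts were -0.23 (adjusted p = 0.00027) on vehicle and -0.25 (adjusted p = 8.9e-05) on GW3965, so that relative to the median gene it was lower with Villin-Cre.

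Nqo1 and Hmox1 had similar liver profiles. Nqo1 measured 16.4, 14.0 and 14.1 CPM in floxed vehicle, 4.04, 14.6 and 14.6 CPM in floxed GW3965, 36.7, 35.6 and 36.1 CPM in Villin-Cre vehicle and 24.5, 22.1 and 23.6 CPM in Villin-Cre GW3965 liver. Hmox1 measured 40.3, 34.7 and 40.0 CPM, 15.8, 42.1 and 42.4 CPM, 101, 99.96 and 102 CPM, and 70.0, 72.5 and 72.3 CPM in the same order. For both genes the Villin-Cre vehicle livers were highest, the Villin-Cre GW3965 livers next and the floxed groups lowest, and floxed GW3965 replicate 1 lay far below its group. On vehicle Villin-Cre livers held 1.26 ± 0.32 more Nqo1 (log2, adjusted p = 0.0039) and 1.39 ± 0.26 more Hmox1 (adjusted p = 0.00034). On GW3965 the differences were 1.24 ± 0.32 (adjusted p = 0.0043) and 1.22 ± 0.26 (adjusted p = 0.00094), and without floxed GW3965 replicate 1 they were 0.66 (adjusted p = 1.0e-08) and 0.75 (adjusted p = 4.8e-14).

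The GW3965 contrasts of Nqo1 and Hmox1 in floxed liver, and their interactions, rest on that library. In floxed liver they were -0.59 ± 0.32 (adjusted p = 0.18) and -0.32 ± 0.26 (adjusted p = 0.38) with it, and -0.02 (adjusted p = 0.90) and 0.14 (adjusted p = 0.036) without it. The interactions, -0.02 ± 0.45 (adjusted p = 0.98) and -0.17 ± 0.36 (adjusted p = 0.79), became -0.60 (adjusted p = 3.8e-05) and -0.64 (adjusted p = 1.4e-08). In Villin-Cre liver both genes were lower on GW3965 without overlap (-0.62 ± 0.32, adjusted p = 0.24, and -0.49 ± 0.26, adjusted p = 0.24). Fitted on those groups alone, adjusted p was 1.6e-08 and 2.8e-10.

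Gpx2 was near the limit of detection in floxed liver, at 0.65, 0.59 and 0.44 CPM on vehicle and 0.15, 0.28 and 0.20 CPM on GW3965, from as few as 4 reads. It measured 4.59, 3.35 and 3.71 CPM in Villin-Cre vehicle and 1.96, 1.98 and 1.62 CPM in Villin-Cre GW3965 liver. Gpx2 passed the filter on low values through the Villin-Cre groups and so had to differ; the contrasts of 2.04 ± 0.17 on vehicle and 1.73 ± 0.17 on GW3965 are given as sizes, and with a pseudocount of 2 CPM they were 1.19 and 0.80. Within Villin-Cre liver GW3965 lowered it by -0.89 ± 0.17 (adjusted p = 0.0045). In floxed liver the fall of -0.58 ± 0.17 (adjusted p = 0.019) was lost without floxed vehicle replicate 1 or 2 or floxed GW3965 replicate 1 (adjusted p = 0.070, 0.057 and 0.064) and with a pseudocount of 2 CPM (-0.21, adjusted p = 0.099).

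Osgin1 was the 1 member that rose on GW3965 in floxed liver. It measured 214, 218 and 204 CPM in floxed vehicle, 423, 243 and 254 CPM in floxed GW3965, 239.7, 231 and 233 CPM in Villin-Cre vehicle and 193.5, 192 and 187 CPM in Villin-Cre GW3965 liver. The floxed GW3965 livers were highest, led by replicate 1, and the Villin-Cre GW3965 livers lowest. GW3965 raised it in floxed liver by 0.48 ± 0.14 (adjusted p = 0.020), and by 0.23 (adjusted p = 2.0e-06) without replicate 1. That call was lost without floxed vehicle replicate 1 (adjusted p = 0.052) or 3 (adjusted p = 0.067). In Villin-Cre liver the change was -0.29 ± 0.14 (adjusted p = 0.21), and the interaction was -0.78 ± 0.20 (adjusted p = 0.015; -0.52 without floxed GW3965 replicate 1). On GW3965 the genotypes differed by -0.63 ± 0.14 (adjusted p = 0.0016; -0.38 without that library).

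G6pdx measured 21.0, 20.9 and 18.0 CPM in floxed vehicle, 10.4, 14.1 and 15.3 CPM in floxed GW3965, 28.7, 28.1 and 30.0 CPM in Villin-Cre vehicle and 28.7, 24.1 and 23.5 CPM in Villin-Cre GW3965 liver. The floxed groups lay apart from each other and below both Villin-Cre groups, which overlapped. It was higher with Villin-Cre on vehicle (0.53 ± 0.12, adjusted p = 0.0019; 0.25, adjusted p = 0.10, after rescaling) and on GW3965 (0.93 ± 0.12, adjusted p = 1.4e-05). GW3965 lowered it in floxed liver (-0.59 ± 0.12, adjusted p = 0.0021).

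Nfe2l2, the regulator, measured 113, 109.5 and 109.7 CPM in floxed vehicle, 93.2, 92.1 and 94.1 CPM in floxed GW3965, 100.3, 97.5 and 103 CPM in Villin-Cre vehicle and 90.5, 92.8 and 91.8 CPM in Villin-Cre GW3965 livers. Floxed vehicle livers were highest, Villin-Cre vehicle livers next, and the GW3965 groups overlapped. On vehicle it was lower with Villin-Cre (-0.14 ± 0.04, adjusted p = 0.0099), where 7 other members (6 after rescaling) and 45.1% of all genes were higher. The 7 include Gpx2, whose call was fixed by the filter on low values. The Nfe2l2 difference was -0.43 (adjusted p = 1.0e-06) after rescaling, and -0.12 (adjusted p = 0.050, just over the threshold) without Villin-Cre vehicle replicate 2. On GW3965 the genotypes differed by -0.02 ± 0.04 (adjusted p = 0.68), and by -0.27 (adjusted p = 8.2e-05) after rescaling. GW3965 lowered it in floxed liver (-0.25 ± 0.04, adjusted p = 0.00044). In Villin-Cre liver the change was -0.13 ± 0.04 (adjusted p = 0.059).

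**Figure D3:**
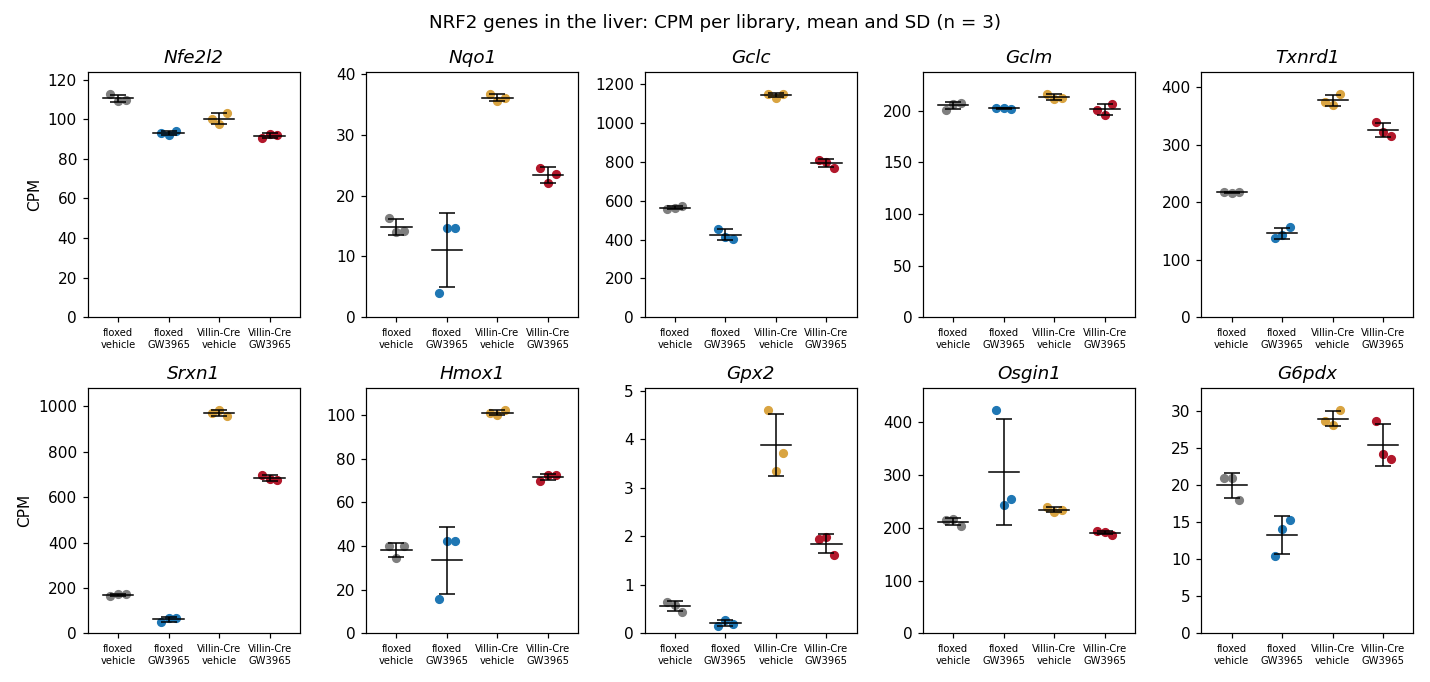
Levels of the 10 NRF2 genes in each liver library (CPM, linear axes from 0), by group, with the mean (line) and SD (bar) of 3 libraries. Srxn1 reaches 956 to 981 CPM in Villin-Cre vehicle livers, Gclm is nearly level, and 1 floxed GW3965 library is apart from its group for Nqo1, Hmox1 and Osgin1.

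Cell type markers moved with these liver groups. On vehicle 45.1% of all liver genes were higher and 11.7% lower with Villin-Cre, to be set beside the marker counts here. The 12 macrophage markers summed to 778 to 794 CPM in floxed vehicle, 500 to 834 in floxed GW3965, 1863 to 1906 in Villin-Cre vehicle and 1288 to 1336 in Villin-Cre GW3965 livers, with all 12 higher on vehicle with Villin-Cre. The lowest floxed GW3965 sum, 500.0 CPM, was that of replicate 1. Of the listed bile duct markers, 6 of 6 were higher with Villin-Cre on vehicle (121 to 123 CPM summed against 278 to 284). Which cells expressed these markers was not tested. Of the hepatocyte markers, 9 of 10 were lower (78450 to 80680 CPM against 51790 to 52290). Enterocyte markers, some of which the liver also expresses, summed to 1940 to 2001 CPM in floxed vehicle and 3966 to 4078 in Villin-Cre vehicle livers, and of the 6 tested 2 were higher and 1 lower. Sis was at 0 in floxed livers. The part of these shifts in the changes of the NRF2 genes was not tested.

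**Figure D4:**
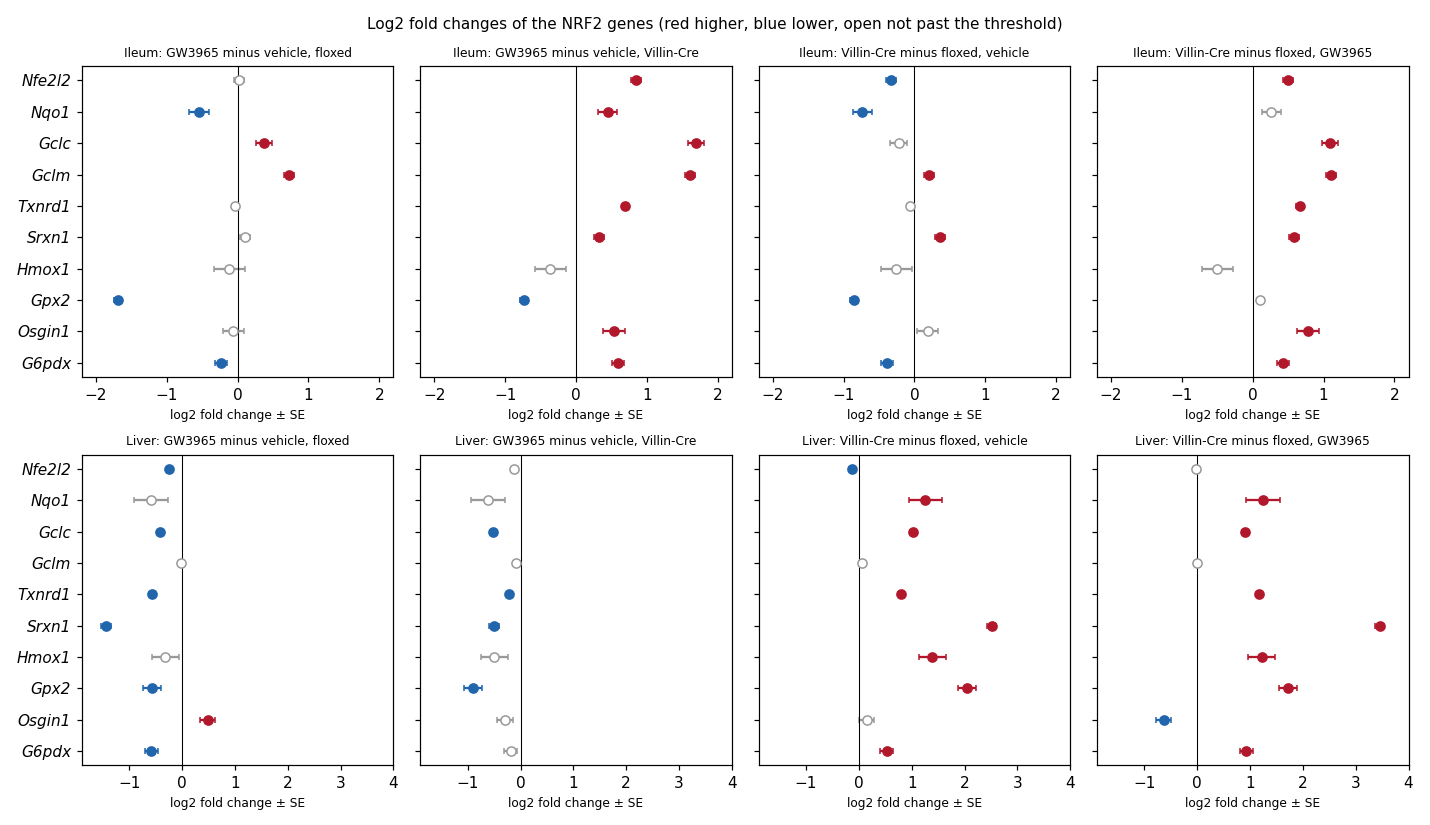
Log2 fold changes with SE of the 10 genes in the 4 contrasts of the ileum (top) and the liver (bottom), red where higher and blue where lower at an adjusted p under the threshold, open where not. In the ileum 8 genes are red on GW3965 with Villin-Cre, and in the liver 7 are red with Villin-Cre on vehicle, among them Gpx2, which passed the filter through the Villin-Cre groups. After rescaling Txnrd1, Osgin1 and Gclc in the ileum and Gclm and Osgin1 in the liver each change sign in panels where they lie near 0.

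Levels per kilobase of exon differed between genes and between tissues, whose tables were made separately and are set side by side without a test. Lengths join the exons of all annotated transcripts, so the order of genes depends on them. For Gpx2 the length, 3.22 kb, covers the whole gene. In floxed vehicle ileum Gpx2 was highest at 94.0 CPM per kb, followed by Srxn1 at 66.1, Txnrd1 at 23.1, Nfe2l2 at 18.1 and G6pdx at 14.3, and Hmox1 was lowest at 1.38. In floxed vehicle liver Gclc was highest at 150 CPM per kb, followed by Osgin1 at 79.3, Srxn1 at 60.1, Gclm at 32.6 and Txnrd1 at 30.7, and Gpx2 was lowest at 0.17. In Villin-Cre vehicle liver Srxn1 led with 343.5 CPM per kb. On GW3965 the Villin-Cre ileum had 29.5 CPM per kb of Gclc and 17.9 of Gclm, against 211 and 32.0 in the liver of the same group.

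Around these members, genes for the degradation and the partners of NRF2 changed in both directions. The shares of all genes to set beside the list counts below were 21.5% higher and 31.1% lower on GW3965 in Villin-Cre ileum. They were 14.7% and 20.9% on GW3965 in floxed ileum, and 45.1% and 11.7% with Villin-Cre in vehicle liver. Of 7 genes of the KEAP1 complex and NRF2 turnover, 3 were higher and 2 lower on GW3965 in Villin-Cre ileum, 2 higher and 3 lower in floxed ileum, and 5 higher and 1 lower with Villin-Cre in vehicle liver (2 higher and 1 lower after rescaling). Sqstm1, the autophagy receptor that binds KEAP1, rose on GW3965 from 118 ± 5.17 to 172 ± 5.40 CPM in floxed (SD, n = 3) and from 143 ± 3.22 to 237 ± 7.77 CPM in Villin-Cre ileum. Vehicle livers held 685 ± 14.5 CPM without and 1808 ± 28.8 CPM with Villin-Cre (adjusted p = 3.6e-11). Of 6 tested small MAF partners and competing factors, 3 were higher and 2 lower in Villin-Cre ileum on GW3965 (3 higher and none lower after rescaling). They were Mafg, a MAF partner of NRF2 (68.8 ± 5.04 to 163 ± 6.86 CPM), and the repressors Bach1 (132 ± 1.31 to 282.5 ± 2.10 CPM) and Bach2 (20.6 ± 0.37 to 30.0 ± 1.83 CPM). In vehicle liver Maff, another small MAF, was at 7.63 ± 1.00 CPM without and 27.7 ± 0.94 CPM with Villin-Cre (1.80, adjusted p = 3.1e-09).

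Genes that use glutathione were counted next. Of 16 tested glutathione transferases, which join glutathione to electrophiles, 12 were higher and 1 lower on GW3965 in Villin-Cre ileum (21.5% and 31.1% of all genes). In floxed ileum 1 was higher and 5 lower (14.7% and 20.9% of all genes). The interaction was positive in 11 and negative in none (14.6% and 18.4% of all genes). Gstm3 measured 1.96 ± 0.61, 1.62 ± 0.76 and 0.84 ± 0.54 CPM in floxed vehicle, floxed GW3965 and Villin-Cre vehicle ileum and 72.6 ± 5.55 CPM in Villin-Cre GW3965 ileum (5.87, adjusted p = 1.1e-10). Gsta4 rose from 2.09 ± 0.06 to 11.3 ± 1.77 CPM in the same mice. Several of these transferases have near-identical copies, between which reads may have been split. In the liver 6 transferases were higher and 4 lower with Villin-Cre on vehicle, led by Gsta1 (27.8 ± 1.96 against 259 ± 3.29 CPM; 3.20, adjusted p = 7.4e-06). In floxed liver GW3965 raised 1 and lowered 3 (10.4% and 19.7% of all genes). Without floxed GW3965 replicate 1 these were 8 and 3. The shares of all genes are from the fit with that library and cannot be set beside the 8.

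Glutathione synthesis, recycling and cystine import changed unevenly. Of 7 ileal genes 4 were higher and 1 lower on GW3965 in Villin-Cre mice, and 4 higher and 2 lower in floxed mice. Gsr, glutathione reductase, was 431 ± 18.8 CPM in floxed vehicle, 158 ± 11.3 CPM in floxed GW3965, 231 ± 6.53 CPM in Villin-Cre vehicle and 140 ± 5.13 CPM in Villin-Cre GW3965 ileum, falling on GW3965 by -1.44 (adjusted p = 9.2e-12) and -0.72 (adjusted p = 1.7e-08). In vehicle liver all 6 tested genes of the list were higher with Villin-Cre (3 after rescaling). Slc7a11, the cystine importer, measured 13.2 ± 1.17 CPM in floxed vehicle, 0.80 ± 0.31 CPM in floxed GW3965, 241 ± 7.07 CPM in Villin-Cre vehicle and 136.5 ± 7.37 CPM in Villin-Cre GW3965 liver. Its genotype differences were 4.14 on vehicle (adjusted p = 1.0e-11) and 6.75 on GW3965 (adjusted p = 5.3e-14), the latter 6.62 without floxed GW3965 replicate 1. In the ileum Slc7a11 stayed at or below 1.19 CPM in 3 groups, and in floxed GW3965 libraries it spread from 1.96 to 11.7 CPM.

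Of 11 thioredoxins and peroxiredoxins, 1 was higher and 7 lower on GW3965 in floxed ileum, and 3 higher and 2 lower in Villin-Cre ileum. Txn1, the substrate of Txnrd1, was 324 ± 15.4 CPM in floxed vehicle ileum and 173 ± 4.49, 193 ± 7.01 and 186 ± 1.13 CPM in floxed GW3965, Villin-Cre vehicle and Villin-Cre GW3965 ileum. In vehicle liver 5 were higher with Villin-Cre and none lower, which became 3 and 3 after rescaling. Of 7 genes of NADPH supply beside G6pdx, 3 were higher and 2 lower in Villin-Cre ileum on GW3965 (3 and none after rescaling), with Idh1 at 56.4 ± 4.16 and 153 ± 5.51 CPM on vehicle and GW3965 (1.44, adjusted p = 2.5e-11). In the liver Pgd, the next enzyme of the pentose phosphate pathway, measured 135 ± 1.08 CPM without and 279 ± 5.97 CPM with Villin-Cre on vehicle (1.04, adjusted p = 0.00042), whereas Me1 was 385.5 ± 14.9 and 139 ± 2.33 CPM (-1.46, adjusted p = 4.8e-05).

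Of 11 genes of quinone, carbonyl and epoxide detoxification, 6 were higher and 1 lower on GW3965 in Villin-Cre ileum, and 4 higher and 1 lower in floxed ileum. The carbonyl reductase Cbr1 rose from 24.9 ± 1.17 to 88.4 ± 5.59 CPM in Villin-Cre ileum (1.81, adjusted p = 3.5e-11). Its relative Cbr3 led the liver list, at 7.44 ± 0.79 CPM without and 36.4 ± 1.05 CPM with Villin-Cre on vehicle (2.22, adjusted p = 3.7e-09). Of 8 genes of heme breakdown and ferritin, 2 were higher and 1 lower on GW3965 in Villin-Cre ileum and 5 higher and 1 lower with Villin-Cre in vehicle liver (4 and 2 after rescaling). Ftl1, the ferritin light chain, rose from 235 ± 2.64 to 424.5 ± 8.98 CPM in Villin-Cre ileum (0.85, adjusted p = 1.0e-07). Slc48a1, a heme transporter, was 94.5 ± 0.64 CPM without and 230 ± 3.91 CPM with Villin-Cre in vehicle liver (1.28, adjusted p = 1.6e-08).

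All 5 conjugate exporters were higher with Villin-Cre in vehicle liver (4 after rescaling), led by Abcc4 at 26.0 ± 1.42 against 192 ± 4.58 CPM (2.86, adjusted p = 4.6e-07). In the ileum 2 were higher and 3 lower on GW3965 in Villin-Cre mice. Abcc2, the apical exporter of glutathione conjugates, rose from 60.0 ± 1.12 to 830.3 ± 24.3 CPM there (3.78, adjusted p = 4.0e-14) and from 98.8 ± 6.22 to 331 ± 66.8 CPM in floxed ileum (1.72, adjusted p = 1.3e-09).

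Genes that are not classical NRF2 targets were counted beside these. Of 9 other superoxide and peroxide enzymes, 3 were higher and 3 lower on GW3965 in Villin-Cre ileum. Cat, catalase, rose from 100.1 ± 5.75 to 336 ± 5.74 CPM, while Gpx1 fell from 81.2 ± 3.99 to 26.0 ± 0.87 CPM. In vehicle liver 4 were higher and 4 lower with Villin-Cre, with Cat at 2241 ± 10.8 CPM without and 1169 ± 11.7 CPM with it (-0.94, adjusted p = 1.6e-09). Of 10 oxidant-producing oxidases, none was higher and 7 were lower on GW3965 in Villin-Cre ileum. Duox2, the epithelial hydrogen peroxide producer, fell from 751 ± 17.4 to 186 ± 3.70 CPM. In vehicle liver 5 of 7 tested oxidases were higher and 1 lower with Villin-Cre, among them Cybb, the phagocyte oxidase subunit (38.5 ± 1.75 against 90.9 ± 2.32 CPM), beside the macrophage sums given above. Of 8 genes of selenoprotein synthesis, on which Txnrd1 and Gpx2 depend, 2 were higher and 4 lower on GW3965 in Villin-Cre ileum (3 and 1 after rescaling), and 2 higher and 3 lower with Villin-Cre in vehicle liver (1 and 5).

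On GW3965 in Villin-Cre ileum, where the median log2 change of all genes was -0.11, list medians were 0.90 for the transferases, 0.45 for detoxification, 0.42 for glutathione synthesis, 0.21 for NADPH supply and for the MAF list, 0.12 for heme breakdown and 0.01 for the KEAP1 list. They were -0.02 for selenoprotein synthesis, -0.05 for the thioredoxins, -0.11 for the superoxide list, -0.73 for the oxidases and -0.83 for the exporters. Between genotypes in vehicle liver, where the median of all genes was 0.26, they were 1.12 for the exporters, 0.97 for the oxidases, 0.76 for glutathione synthesis, 0.42 for heme breakdown, 0.31 for the KEAP1 list and 0.25 for the MAF list, and -0.07 to 0.19 for the other 6.

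**Figure D5:**
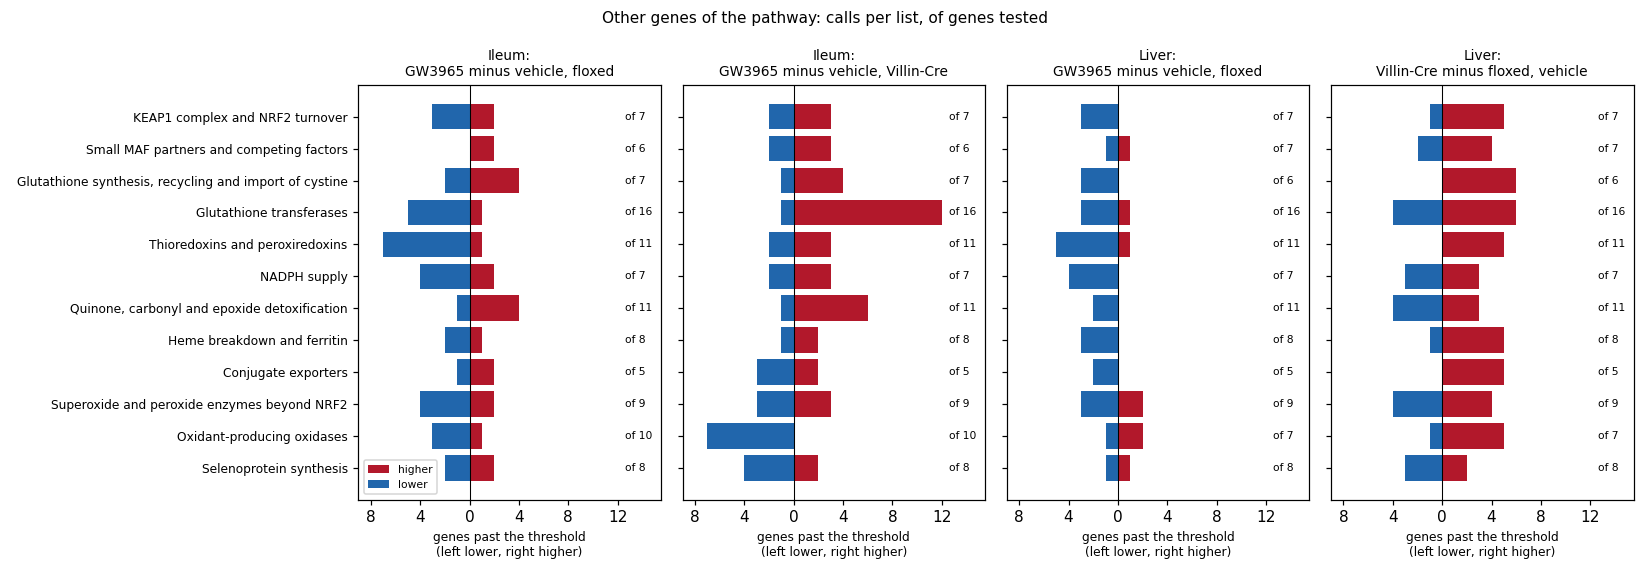
Genes past the threshold in each list of the wider pathway, higher to the right in red and lower to the left in blue, in 4 contrasts, with the number tested beside each bar. The longest bar is that of the glutathione transferases on GW3965 in Villin-Cre ileum, 12 of 16 higher, beside 21.5% of all genes. In the liver panel on the right, where 45.1% of all genes are higher, the thioredoxin list becomes 3 higher and 3 lower after rescaling.

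Profiles most like those of 3 members were sought over the 12 libraries of a tissue, among 10377 ileal and 10404 liver genes with a mean of at least 5 CPM, by the root mean square distance of centred log2 values. In the liver the gene nearest to Nqo1 was Hmox1, at a distance of 0.15, followed by Fcgr4 at 0.21 and Pgd at 0.23, where the spread of Nqo1 itself was 0.81. Nearest to Hmox1 were Fcgr4 (0.12), Cd53 (0.15) and Nqo1 (0.15), with a spread of 0.76. Both liver profiles include floxed GW3965 replicate 1, far below its group. There Nqo1 was 4.04 CPM against 14.6 and 14.6, and Hmox1 15.8 against 42.1 and 42.4. A search without this library was not made, so how far the nearness rests on it was not tested. Fcgr4, an Fc receptor of myeloid cells, measured 6.04, 4.72, 14.7 and 10.9 CPM on average in floxed vehicle, floxed GW3965, Villin-Cre vehicle and Villin-Cre GW3965 liver. Nearest to liver Gpx2 were Vcam1 (0.18), Cstb (0.19) and Ier3 (0.19), with a spread of 1.02. Liver Gpx2 lay at 0.15 to 0.65 CPM in floxed libraries, so the added 0.5 CPM shapes its profile and this nearness. Mean Gpx2 was 0.56, 0.21, 3.88 and 1.85 CPM in the same group order, and mean Vcam1 35.6, 26.5, 143 and 83.9 CPM. In the ileum the genes nearest to Gpx2 were Mpeg1 (0.15), Gsr (0.15) and Gbp2b (0.19), with a spread of 0.68. The ileal profiles of Nqo1 and Hmox1 had spreads of 0.30 each. Nearest to Nqo1 were Slc30a5, Ndufs6 and Pphln1 (0.11 each), and nearest to Hmox1 were Fam53a (0.13), Ranbp3 (0.15) and Wbp11 (0.15). A level gene lies at a distance equal to the spread, so the nearest genes are closer than that by selection. Ileal Hmox1 had 28 to 64 reads per library, so counting noise enters its profile.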

How the data were processed

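Ribosomal RNA was removed, cDNA was primed with random hexamers and paired reads of 150 bases were sequenced, per the labels' protocols. Alignment with STAR 2.5.1a to GRCm38 and counting with featureCounts 1.4.6-p5 are named in the submitters' processing notes. No source used here gives the annotation release, the strand setting or the log formula. The authors deposited log2 values per gene and library, 1 table per tissue. The lowest value stands for 0 reads, and whole reads were recovered for 100% of low values (tolerance 0.05 reads), from which CPM was computed.

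Genes with at least 0.5 CPM in at least 3 libraries (18656 in ileum, 17520 in liver) were fitted per tissue on log2(CPM + 0.5) with limma 3.58.1 (R 4.3.3, 4 group means, trended prior), with Benjamini-Hochberg adjustment over all genes and a threshold of 0.05. The interaction is the GW3965 response in Villin-Cre minus that in floxed mice. The code was tested on simulated data. Samples were grouped by the labels' genotype, treatment and tissue. Same-numbered libraries did not deviate together (correlations of -0.04 to 0.05), so replicate numbers were not used as pairs.

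The members and lists were chosen with earlier results of these data known. Named beside the 10 members are, per list and contrast, up to 3 genes with the largest change among those past the threshold whose groups did not overlap, and the nearest profiles. Alternatives were another scaling, no filter, a pseudocount of 2 CPM, the values as deposited, voom, a replicate block, the compared groups alone, close libraries (under 4 times counting variance) averaged, and each library left out. Gene positions are from GENCODE M21 and promoters from RefSeq GRCm38.p6.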

Additional observations from a re-analysis of the deposited data

Results flagged for a closer look

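Interactions of genotype and GW3965 were past the threshold in limma for 8 members in the ileum (log2, GW3965 response in Villin-Cre minus floxed mice, 3 libraries per group). They were 0.82 for Nfe2l2, 0.99 for Nqo1, 1.32 for Gclc, 0.89 for Gclm, 0.73 for Txnrd1, 0.96 for Gpx2, 0.60 for Osgin1 and 0.82 for G6pdx. In the liver they were 0.36 for Txnrd1, 0.94 for Srxn1 and -0.78 for Osgin1. The Gpx2 value is a smaller fall in Villin-Cre ileum.

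Ileum and liver moved in opposite directions without overlap of the groups in 14 pairs of gene and contrast, and the difference between tissues was not tested. The share of all genes that did so was not counted, so the 14 cannot be set beside it. Per contrast, groups did not overlap for 43.8 to 61.5% of all genes in ileum and 39.1 to 67.4% in liver. Between genotypes the medians of all genes were themselves opposite, at -0.18 (vehicle) and -0.24 (GW3965) in ileum and 0.26 and 0.21 in liver. On GW3965 in floxed mice this was Gclc (0.38 in ileum, -0.41 in liver). On GW3965 in Villin-Cre mice it was Nfe2l2 (0.85, -0.13), Nqo1 (0.45, -0.62), Gclc (1.69, -0.53), Gclm (1.61, -0.0823), Txnrd1 (0.69, -0.21), Srxn1 (0.33, -0.50) and Osgin1 (0.54, -0.29). Between genotypes on vehicle it was Nqo1 (-0.73, 1.26), Gclc (-0.22, 1.02), Gpx2 (-0.86, 2.04) and G6pdx (-0.39, 0.53). Liver Gpx2 passed the filter on low values through the Villin-Cre groups and so had to differ, which makes its pair a size only. Between genotypes on GW3965 it was Hmox1 (-0.50, 1.22) and Osgin1 (0.78, -0.63). Of these 28 values, those of Nfe2l2, Nqo1, Gclm and Osgin1 in liver on GW3965 with Villin-Cre, and of Gclc on vehicle and Hmox1 on GW3965 in ileum between genotypes, did not pass the threshold on their own. After rescaling, Gclc between genotypes in vehicle ileum and Gclm on GW3965 in Villin-Cre liver turned positive. The tissues were then no longer opposite for these pairs. Both G6pdx values on vehicle missed the threshold after rescaling.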

How the results depend on the processing

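The replicate numbers do not pair libraries, and a replicate block left the calls of all 10 members the same in all 100 values (9 members past the threshold on GW3965 in Villin-Cre ileum with and without it). Averaging close libraries, which leaves few units, moved the number of members past the threshold on GW3965 in floxed and Villin-Cre mice, between genotypes on vehicle and GW3965, and in the interaction from 5, 9, 6, 7 and 8 to 1, 2, 0, 1 and 0 in ileum and from 7, 4, 8, 8 and 3 to 0, 0, 1, 3 and 0 in liver. Over all genes the same setting called 192, 1461, 21, 1231 and 14 in ileum and 5, 0, 163, 1590 and 0 in liver. With only the compared groups fitted, 3 members passed on GW3965 in floxed ileum and 9 in Villin-Cre liver, where 4818 genes in all were called (2081 in the fit of all groups), and 3458 genes were called in floxed liver (5265). Voom on the recovered reads called 2487 to 9970 genes per contrast, beside 2081 to 9951. Leaving out 1 library gave 3 to 5 members for floxed ileum on GW3965 (3 without floxed vehicle replicate 3) and 3 to 5 for the liver interaction (5 without floxed GW3965 replicate 1, with 5718 genes in all in place of 3479). For GW3965 in Villin-Cre liver it gave as few as 1084 genes.

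Signs turned after rescaling for Txnrd1 (0.0465) and Osgin1 (0.0240) on GW3965 in floxed ileum, Gclc (0.0218) and Txnrd1 (0.19) between genotypes in vehicle ileum, Gclm on GW3965 in floxed (0.0383) and Villin-Cre liver (0.0143), Gclm (-0.23) and Osgin1 (-0.14) between genotypes in vehicle liver, and the liver interaction of Nqo1 (0.0249). They turned in the liver interaction for Nqo1 (0.00642) and Gpx2 (0.30) with values as deposited and Gpx2 (0.31) with voom, and with close libraries averaged for Osgin1 on GW3965 in floxed ileum (0.0667) and the liver interactions of Nqo1 (0.27) and Hmox1 (0.0582). Leaving out 1 library gave ranges across 0 on GW3965 in floxed ileum for Nfe2l2 (-0.0646 to 0.0722), Osgin1 (-0.31 to 0.10) and Hmox1 (-0.33 to 0.0468). In liver it did so for Hmox1 on GW3965 in floxed mice (-0.55 to 0.14), Gclm between genotypes on GW3965 (-0.0287 to 0.00960) and the interactions of Nqo1 (-0.60 to 0.27) and Hmox1 (-0.64 to 0.0605). The cause was not tested. Depth limits Hmox1 in ileum (28 to 64 reads) and Gpx2 in floxed liver (from 4 reads).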
